A study of Mus musculus with 12 samples.

Results

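The genes described here encode 10 neuropeptide precursors of the spinal cord: Penk, Pdyn, Sst, Tac1, Grp, Npy, Calca, Calcb, Gal and Vip. They were taken by gene symbol from the table of read counts, where they make up 10 of 45906 genes. The list was drawn up with earlier results of these data known. Neuropeptides are cut from larger precursor proteins, stored in dense core vesicles and released upon neuronal activity. Most act on G protein-coupled receptors. In the spinal cord they are made by interneurons of the dorsal horn, which process pain, itch and touch, by motoneurons, and by sensory neurons whose cell bodies lie outside the cord in the dorsal root ganglia. Axonal injury is known to alter the peptides of sensory neurons and motoneurons, with Gal and Vip among the genes induced in injured sensory neurons.

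Poly-A RNA was sequenced from the spinal cord of mice at 7 months of age. The 12 libraries came from 12 mice, with 3 mice for each of 4 genotypes: Plekhg5+/+, Plekhg5-/-, Plekhg5+/+ SOD1-G93A and Plekhg5-/- SOD1-G93A. Plekhg5 encodes an activator of the small GTPase Rab26 with a role in the autophagy of synaptic vesicles, and the kind of allele in the Plekhg5-/- mice is not given in the sources used here. SOD1-G93A is a transgene for a human SOD1 variant that causes amyotrophic lateral sclerosis, and the study used a line with few transgene copies, in which the disease progresses slowly. All mice shared the C57BL/6 background, and sexes were mixed. The groups were compared to ask what the transgene does with and without Plekhg5, and what the loss of Plekhg5 does with and without the transgene.

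The libraries held 30415643 to 38743628 counts. Plekhg5 was at 19.4 to 25.0 CPM (counts scaled to the size of each library, the unit of all levels below) in the 6 Plekhg5+/+ libraries and at 3.28 to 4.72 CPM in the 6 Plekhg5-/- libraries. Human SOD1 was at 4421 CPM or more in the 6 transgenic libraries and at most at 5.47 CPM in the others, so the labels and these 2 genes matched in 12 of 12 libraries. Y-linked transcripts were found in 8 of 12 libraries. They were not found in Plekhg5-/- library 2 or in Plekhg5+/+ SOD1-G93A library 2. Of the Plekhg5-/- SOD1-G93A libraries, only library 1 had them, whereas all libraries of the Plekhg5+/+ genotype without the transgene did. The sexes, as judged by these transcripts, were thus unevenly spread over the genotypes.

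A single library stood apart in the markers of sensory neurons. In Plekhg5-/- SOD1-G93A library 2 the sodium channel gene Scn10a was at 8.21 CPM, against 0 to 0.567 CPM in the other 11 libraries. Scn11a was at 5.04 CPM there and at most at 0.247 CPM elsewhere, and 10 of the 12 dorsal root ganglion markers listed were highest in this library. Their summed level was 57.1 CPM, against 17.5 to 22.2 CPM in the other 11 libraries. Dorsal root ganglion neurons are known for high levels of Calca and Tac1. In this library Calca was at 36.8 CPM, Calcb at 8.96 CPM and Tac1 at 27.2 CPM, the lowest values of the genotype for these 3 genes, while Gal, at 6.13 CPM, was the highest of its genotype. Schwann cell markers, which belong to the nerve roots, also varied between libraries. The summed level of 5 Schwann cell markers (Prx, Pmp2, Ncmap, Drp2 and Egr2) was 156.8 to 205.0 CPM in Plekhg5-/- SOD1-G93A, 82.7 to 176.2 CPM in Plekhg5+/+, 73.8 to 98.9 CPM in Plekhg5-/- and 88.6 to 123.6 CPM in Plekhg5+/+ SOD1-G93A libraries. The part of such tissue in the values of the peptide genes was not tested. Upon the transgene without Plekhg5, 5 of these 5 markers were higher (median log2 fold change 1.67) and 5 of 5 had an unadjusted p under 0.05, although 0 were called. With Plekhg5 2 of 5 were higher (median -0.28). Some of the values that moved without Plekhg5-/- SOD1-G93A library 2 are also given without it.

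Several of these genes are known targets of cAMP signalling, and the cAMP response element, the palindrome TGACGTCA bound by the factor CREB, was first worked out on the Sst promoter. The stretches around this element or its core TGACG are shown for the 4 genes whose RefSeq promoter window (GRCm38.p6, 250 bases before and 50 after a start site) holds a match before the start, read 5′ to 3′ on the strand of the gene. Capitals mark the match, on either strand.
Sst: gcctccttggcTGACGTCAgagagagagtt
Vip: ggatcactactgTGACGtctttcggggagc
Calca: gaagcacagaggTGACGcaatctgtctggg
Tac1: gctctacaggctCGTCAcgcctgagataaa
The Sst stretch (chr16:23890874-23890903, minus strand) holds the whole palindrome, with its first base 48 bases before the start. The Vip stretch (chr10:5639127-5639156, plus strand) holds a core 79 bases before the start, the Calca stretch (chr7:114636405-114636434, minus strand) 65 bases before it, and the Tac1 stretch (chr6:7555006-7555035, plus strand) 43 bases before it on the opposite strand. For Sst and Calca, the gene as counted reaches further upstream than the start site of the table, so that these stretches lie within the counted gene. Promoter windows were at hand for 7 of the 10 genes, namely Sst, Vip, Calca, Tac1, Gal, Npy and Pdyn. The whole palindrome was in 1 of these 7 genes and in 1.79% of all 32851 windows. The core, which the palindrome contains, was in 5 of the 7 and in 20.8% of all windows, with the match of Gal lying 20 bases after the start. TATAAA occurred in 1 of the 7 (Vip; 13.6% of all windows), and the AP-1 motif TGANTCA in 0 of the 7 (7.81% of all windows). Both strands were searched, and a match describes the letters only.

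All 10 genes had enough counts to be tested, with 55 to 8181 counts per library. To compare levels between genes, CPM were divided by the combined exon length in kilobases. On this scale Penk was the highest in Plekhg5+/+ mice, at 130.3 ± 18.3 CPM per kb (SD, n = 3). Sst followed at 82.2 ± 14.1 CPM per kb. Both mark large populations of dorsal horn interneurons, Penk as the precursor of the enkephalins and Sst as that of somatostatin. Tac1, the precursor of substance P, had 20.9 ± 3.73 CPM per kb and Npy, the precursor of neuropeptide Y, 19.6 ± 3.20 CPM per kb, with overlapping ranges of their libraries. Calca had 14.1 ± 1.22 CPM per kb, below the lowest Npy library. The levels of Gal (7.65 ± 1.91), Pdyn (7.50 ± 0.948) and Grp (6.21 ± 1.23 CPM per kb) overlapped from each gene to the next in this order. Calcb had 3.22 ± 0.270 CPM per kb and Vip was the lowest at 2.13 ± 0.248 CPM per kb. Across all 12 libraries the highest value exceeded the lowest by 1.38-fold for Pdyn, the precursor of the dynorphins, and by up to 2.57-fold for Vip.

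**Figure D1:**
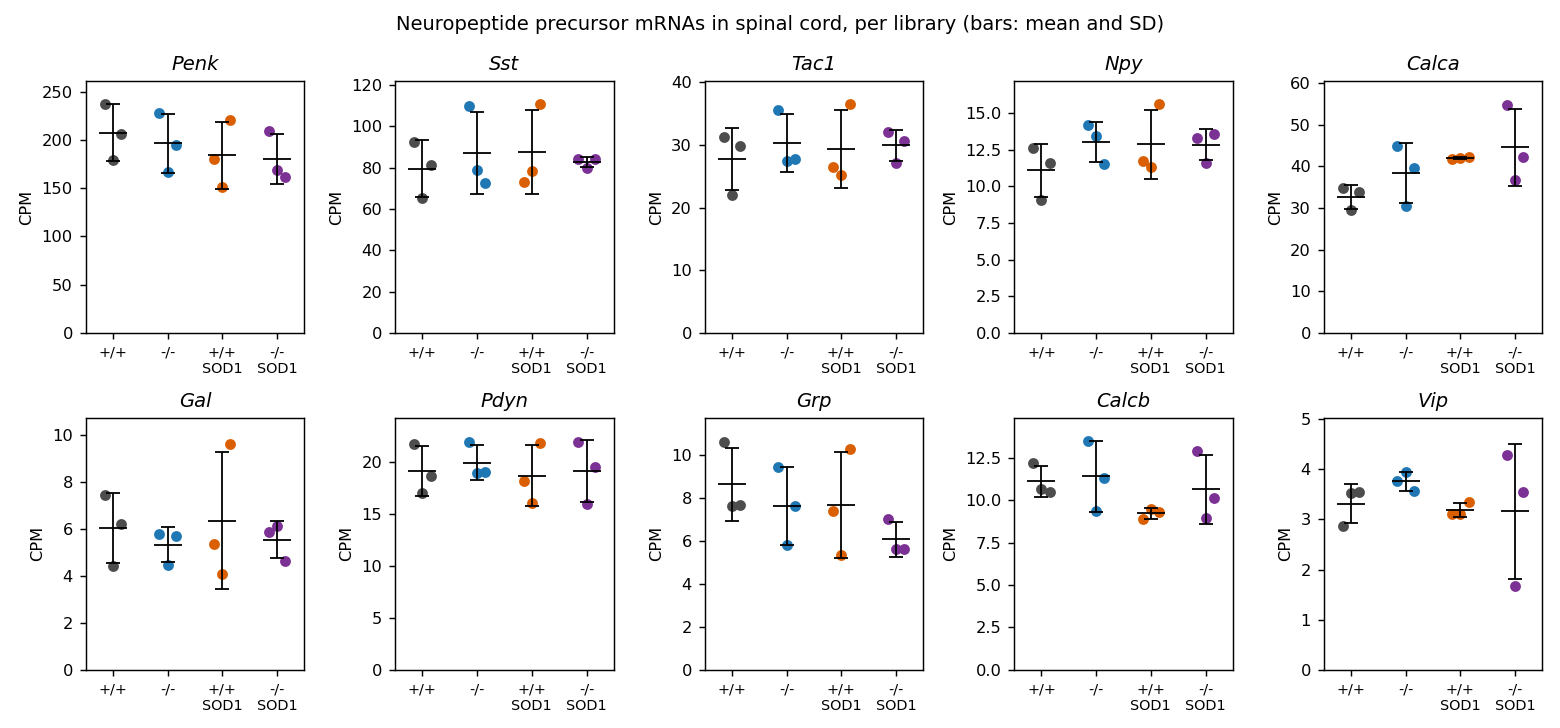
CPM (linear axis from 0) of each of the 10 genes in the 12 libraries, ordered by level per length; points are libraries, in the order of their numbers within each genotype, and bars give the mean and SD of 3 mice. The genotypes overlap for most genes, whereas Calca in Plekhg5+/+ SOD1-G93A (41.7 to 42.4 CPM) lies above Plekhg5+/+ (29.5 to 34.8 CPM).

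None of the 10 genes passed the test in any of the 7 comparisons (edgeR quasi-likelihood test on all 12 libraries, adjusted p under 0.05 over 20155 genes). With Plekhg5 present, the transgene changed 498 of the 20155 genes tested (2.47%) and 0 of the 10 peptide genes, of which 1 had an unadjusted p under 0.05. The count over all genes rested on single libraries: it was 2 without library 2 and 4 without library 1 of the Plekhg5+/+ mice, 223 to 771 without any other library, and 3 when only the 2 genotypes compared were fitted. Without Plekhg5 1 gene was called upon the transgene (0.00496%), which was human SOD1 itself. Averaged over both Plekhg5 backgrounds 245 genes were called (1.22%). Human SOD1 was also among these 245 and among the 498 genes called with Plekhg5. The averaged count was 10 to 38 without Plekhg5+/+ library 1 or 2, Plekhg5-/- library 2 or 3, or Plekhg5-/- SOD1-G93A library 1 or 2, 101 without Plekhg5+/+ library 3, and reached 560 without Plekhg5+/+ SOD1-G93A library 2. In all these fits 0 of the 10 peptide genes were called. Upon the loss of Plekhg5, 7 genes were called with the transgene (0.0347%), 6 genes without it (0.0298%) and 11 genes on average (0.0546%). Plekhg5 itself was among the called genes each time. The interaction of transgene and Plekhg5 loss was called for 0 genes (0%). In each of these comparisons 0 of the 10 peptide genes were called, and the largest of these background shares would amount to less than 1 of 10 genes. With DESeq2, with or without its prior on fold changes, 0 of the 10 genes were called as well. Upon the transgene, the 10 genes had a median log2 fold change of 0.02 with Plekhg5 (5 genes positive, 5 negative) and -0.07 without it (2 positive, 8 negative). The latter rested on Plekhg5-/- SOD1-G93A library 2, without which the median was 0.03 (6 positive, 4 negative). Over all genes tested the medians were -0.00099 and -0.0049. In bulk tissue, fewer cells of a type and less RNA per cell cannot be told apart.

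**Figure D2:**
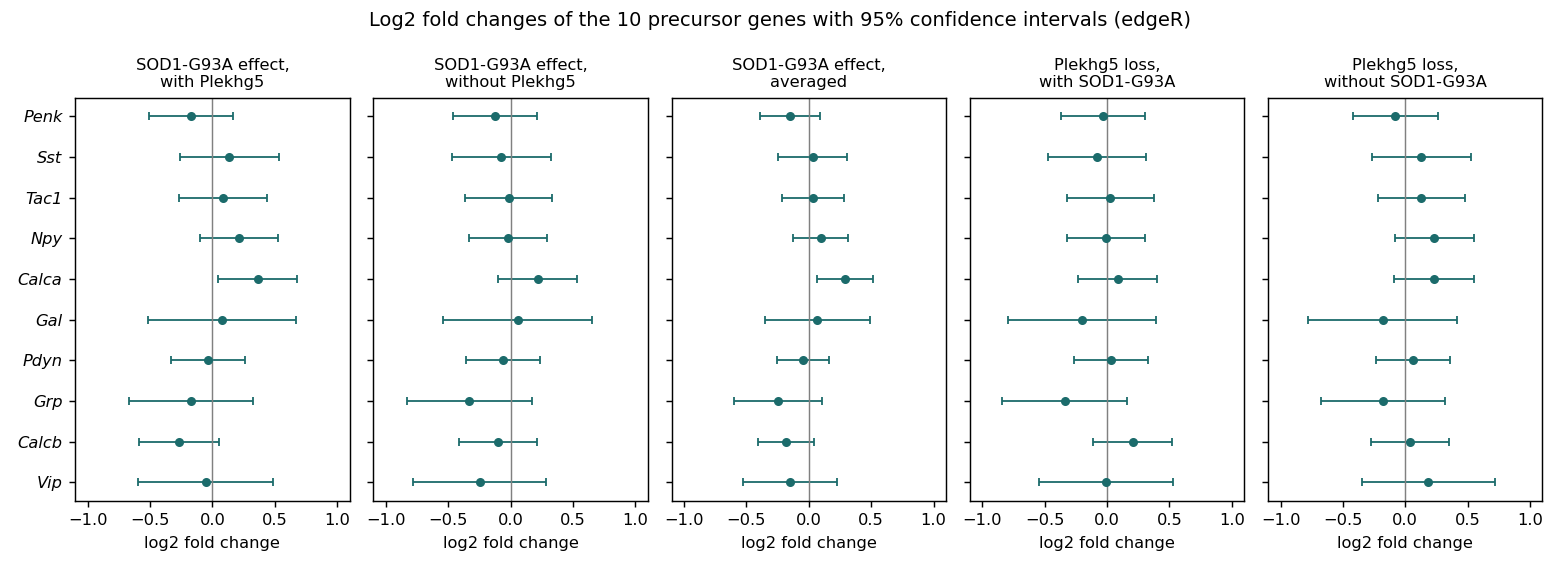
Log2 fold changes of the 10 genes (points) with their 95% confidence intervals (lines) in 5 comparisons, from the edgeR fit. The interval of Calca excludes 0 in the transgene effect with Plekhg5 (0.04 to 0.68) and in its average (0.07 to 0.51), and those of the other genes include 0.

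The opioid peptide genes differed little between genotypes. Penk was at 237.2, 179.0 and 206.6 CPM in the Plekhg5+/+ libraries, at 228.2, 166.5 and 194.7 CPM in the Plekhg5-/- libraries, at 180.5, 151.5 and 220.7 CPM in the Plekhg5+/+ SOD1-G93A libraries and at 209.5, 169.0 and 161.7 CPM in the Plekhg5-/- SOD1-G93A libraries. The ranges of all 4 genotypes overlapped. The log2 fold change of Penk upon the transgene was -0.17 ± 0.16 (SE) with Plekhg5 (95% CI -0.51 to 0.17, adjusted p = 0.611, edgeR) and -0.13 ± 0.16 without it. Pdyn had the narrowest intervals, at 19.1 ± 2.41, 19.9 ± 1.72, 18.7 ± 2.92 and 19.1 ± 3.01 CPM in the same order of genotypes (SD, n = 3). Its log2 fold change was -0.03 with Plekhg5 (95% CI -0.33 to 0.26) and -0.06 without it (95% CI -0.36 to 0.24), or 0.05 with Plekhg5-/- SOD1-G93A library 2 left out. As folds, these intervals span 0.794 to 1.20 and 0.780 to 1.18, so that larger changes of Pdyn were outside them.

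Sst, Tac1 and Grp, which are made chiefly by excitatory neurons of the dorsal horn, overlapped in each of the 4 comparisons between genotype pairs. Sst was at 92.4, 65.2 and 81.2 CPM in Plekhg5+/+ and at 73.2, 78.5 and 110.7 CPM in Plekhg5+/+ SOD1-G93A mice. Its values were 109.9, 78.8 and 72.5 CPM in Plekhg5-/- mice and 84.0, 80.0 and 84.1 CPM in Plekhg5-/- SOD1-G93A mice. The spread of Sst within genotypes was as large as the distance between them, with log2 fold changes upon the transgene of 0.14 (95% CI -0.26 to 0.53) with and -0.07 (95% CI -0.47 to 0.32) without Plekhg5. Tac1 ranged from 22.0 to 36.5 CPM over all libraries, and its log2 fold changes in the 4 comparisons between genotype pairs lay between -0.02 and 0.13. Grp, a peptide of itch pathways, was at 10.6, 7.62 and 7.66 CPM in Plekhg5+/+, 9.42, 5.81 and 7.63 CPM in Plekhg5-/-, 7.39, 5.35 and 10.3 CPM in Plekhg5+/+ SOD1-G93A and 7.00, 5.62 and 5.59 CPM in Plekhg5-/- SOD1-G93A mice. The lowest mean of Grp was that of Plekhg5-/- SOD1-G93A mice, whose 3 libraries lay below those of the Plekhg5+/+ mice, a pair of genotypes that was not compared, and overlapped with the other genotypes. Its log2 fold change upon Plekhg5 loss with the transgene was -0.34 ± 0.23 (SE; 95% CI -0.84 to 0.16, adjusted p = 0.661, edgeR), and upon the transgene without Plekhg5 -0.33 (95% CI -0.83 to 0.17, adjusted p = 0.950). Without Plekhg5+/+ SOD1-G93A library 3, which had the highest Grp of its genotype, the former value was -0.07. Without library 2 of that genotype, which had the lowest, it was -0.53.

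Npy, which marks inhibitory interneurons of the dorsal horn, was at 12.6, 9.10 and 11.6 CPM in Plekhg5+/+ mice. It was at 11.7, 11.3 and 15.6 CPM in Plekhg5+/+ SOD1-G93A, 14.2, 13.4 and 11.5 CPM in Plekhg5-/- and 13.3, 11.6 and 13.6 CPM in Plekhg5-/- SOD1-G93A mice. The means of the 3 mutant genotypes were similar to each other (12.8 to 13.1 CPM), and each overlapped with that of Plekhg5+/+ mice (11.1 CPM) in its libraries. The log2 fold change of Npy was 0.21 ± 0.15 upon the transgene with Plekhg5 (SE; adjusted p = 0.478, edgeR) and 0.23 ± 0.15 upon Plekhg5 loss without the transgene (adjusted p = 0.976).

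Gal and Vip showed no common direction. Gal was at 7.42, 4.44 and 6.22 CPM in Plekhg5+/+, 5.79, 4.46 and 5.71 CPM in Plekhg5-/-, 5.34, 4.09 and 9.63 CPM in Plekhg5+/+ SOD1-G93A and 5.86, 6.13 and 4.64 CPM in Plekhg5-/- SOD1-G93A mice. The highest and the lowest Gal value of all 12 libraries were both from Plekhg5+/+ SOD1-G93A mice. The log2 fold change of Gal upon the transgene was 0.08 ± 0.27 with Plekhg5 (SE; 95% CI -0.51 to 0.67, adjusted p = 0.920, edgeR), but it was -0.35 without library 3 and 0.30 without library 2 of the Plekhg5+/+ SOD1-G93A mice. Vip was at 2.87, 3.52 and 3.55 CPM in Plekhg5+/+, 3.77, 3.95 and 3.57 CPM in Plekhg5-/-, 3.11, 3.10 and 3.36 CPM in Plekhg5+/+ SOD1-G93A and 4.29, 1.67 and 3.55 CPM in Plekhg5-/- SOD1-G93A mice. The library with the sensory neuron markers had the lowest Vip of all 12, with 55 counts against 94 to 139 counts in the other 11, and the first library of the same genotype had the highest. The log2 fold change of Vip upon the transgene without Plekhg5 was -0.25 ± 0.25 (SE; 95% CI -0.78 to 0.29, adjusted p = 0.950, edgeR), and 0.06 with that library left out. Leaving it out also moved Vip upon Plekhg5 loss with the transgene from -0.01 to 0.29, and its interaction from -0.19 to 0.11. Leaving out library 1 of the same genotype instead moved these 2 values the other way, to -0.27 and -0.44. The value upon the transgene without Plekhg5 was then -0.51. None of these values passed the test. The 3 Plekhg5-/- libraries lay above the 3 Plekhg5+/+ libraries for Vip (log2 fold change 0.18, 95% CI -0.35 to 0.72, adjusted p = 0.997). This was 1 of the 10 genes without overlap in that comparison, against 8.71% of all genes tested.

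Atf3, a transcription factor of injured neurons, was measured in the same libraries. It was at 3.54, 2.64 and 1.99 CPM in Plekhg5+/+ and at 14.3, 6.40 and 4.77 CPM in Plekhg5+/+ SOD1-G93A mice, and at 1.40, 1.48 and 2.43 CPM in Plekhg5-/- and 6.91, 5.22 and 5.02 CPM in Plekhg5-/- SOD1-G93A mice. Atf3 rose upon the transgene with Plekhg5 (log2 fold change 1.64, adjusted p = 0.0452) and on average (1.66, adjusted p = 0.0263, edgeR), while its value of 1.69 without Plekhg5 did not pass the test. With each library left out in turn the call of Atf3 with Plekhg5 held in 2 of 12 fits (log2 fold change 1.03 to 1.92, adjusted p 0.0116 to 0.179), without library 2 or 3 of the Plekhg5+/+ SOD1-G93A mice, and that on average in 6 of 12. Of the 10 genes listed for the response to axon injury, 2 rose upon the transgene with Plekhg5, namely Atf3 and Csf1 (log2 fold change 0.58, adjusted p = 0.0256), a growth factor for microglia. The call of Csf1 was lost without any one of the 3 Plekhg5+/+ libraries (adjusted p 0.0623 to 0.103).

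The 2 genes of calcitonin gene-related peptide (CGRP) came closest to a difference. Calca (chromosome 7, 114625981 to 114636910, minus strand) encodes calcitonin and α-CGRP by alternative splicing, which counts per gene do not separate, and Calcb (chromosome 7, 114716555 to 114723368, plus strand) encodes β-CGRP. Both are made by motoneurons and by sensory neurons, and in both 2 of the 12 deposited counts were not whole numbers, which shows reads shared with other genes or sites. Calca was at 34.8, 29.5 and 33.8 CPM in Plekhg5+/+ mice and at 41.7, 42.0 and 42.4 CPM in Plekhg5+/+ SOD1-G93A mice, without overlap. In Plekhg5-/- mice Calca was at 44.9, 30.6 and 39.6 CPM and in Plekhg5-/- SOD1-G93A mice at 54.8, 36.8 and 42.3 CPM, with overlap. Calcb went the other way, with 12.2, 10.6 and 10.5 CPM in Plekhg5+/+ and 8.88, 9.50 and 9.33 CPM in Plekhg5+/+ SOD1-G93A mice, again without overlap. Its values were 13.5, 9.37 and 11.3 CPM in Plekhg5-/- mice and 12.9, 8.96 and 10.1 CPM in Plekhg5-/- SOD1-G93A mice, where the groups overlapped. Calca and Calcb were thus 2 of 10 genes without overlap upon the transgene with Plekhg5, against 20.6% of all genes tested. Without Plekhg5, 0 of 10 genes had groups without overlap (12.5% of all genes), and upon Plekhg5 loss with the transgene 0 of 10 (19.5%).

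The log2 fold change of Calca upon the transgene was 0.36 ± 0.15 with Plekhg5 (SE; 95% CI 0.04 to 0.68, adjusted p = 0.212, edgeR) and 0.22 ± 0.15 without it (95% CI -0.10 to 0.53, adjusted p = 0.950). Averaged over both backgrounds it was 0.29 ± 0.10, a 1.22-fold difference (95% CI 1.05 to 1.43, adjusted p = 0.195), at rank 1563 of 20155 genes by p. That of Calcb was -0.27 ± 0.15 with Plekhg5 (95% CI -0.58 to 0.05, adjusted p = 0.372), -0.10 ± 0.15 without it (adjusted p = 0.957) and -0.18 ± 0.10 on average (adjusted p = 0.462). Thus neither gene passed the test. The interaction was -0.14 for Calca and 0.17 for Calcb (adjusted p = 0.820 and 0.792). Without Plekhg5-/- SOD1-G93A library 2 the average of Calca was 0.35 (adjusted p = 0.143), and the values without Plekhg5 were 0.34 for Calca and 0.01 for Calcb (adjusted p = 1.000 for both). The interaction was then -0.02 for Calca and 0.28 for Calcb (adjusted p = 0.985 and 0.799). With an indicator of Y-linked transcripts in the fit, the average of Calca was 0.40 and passed the threshold (adjusted p = 0.0363), as the only call of a peptide gene among all alternatives. Over 21 alternatives the average of Calca ranged from 0.20 to 0.40, with adjusted p from 0.0363 to 0.403.

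The ratio of Calca to Calcb within a library was 2.86, 2.77 and 3.22 in Plekhg5+/+ mice and 3.32, 3.26 and 3.49 in Plekhg5-/- mice. In Plekhg5+/+ SOD1-G93A mice it was 4.70, 4.42 and 4.54, and in Plekhg5-/- SOD1-G93A mice 4.25, 4.11 and 4.19. All 6 transgenic libraries were above the other 6, with the highest ratio without the transgene at 3.49 and the lowest with it at 4.11. This was 1 of 45 ratios between 2 of the 10 genes that separated the 6 transgenic from the 6 other libraries (2.22%), whereas 0 of 45 ratios separated the 6 Plekhg5-/- from the 6 Plekhg5+/+ libraries. The latter count pools both backgrounds, within each of which the ratio of Calca to Calcb did not overlap between the Plekhg5 genotypes. Without the transgene it was higher in Plekhg5-/- (3.26 to 3.49) than in Plekhg5+/+ libraries (2.77 to 3.22). With the transgene it was lower in Plekhg5-/- (4.11 to 4.25) than in Plekhg5+/+ libraries (4.42 to 4.70). The other ratios were not compared in this way. The ratio of Calca to Calcb was picked out after all 45 had been seen and is given as a description. The library with the sensory neuron markers had the ratio 4.11, the lowest of its genotype by a small margin.

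**Figure D3:**
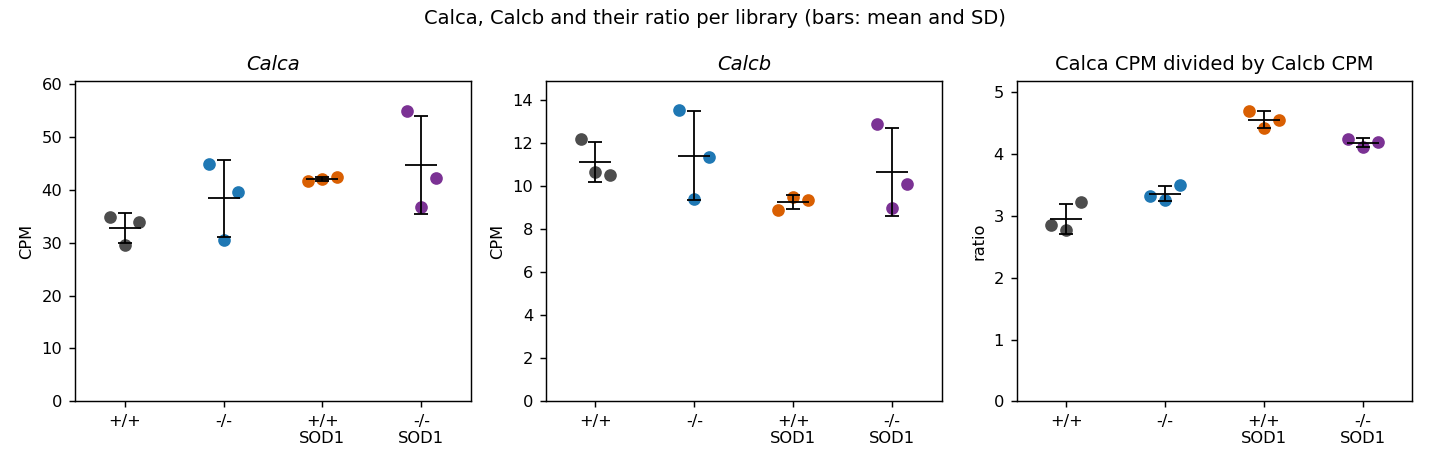
Calca and Calcb in CPM and the ratio of both (linear axes from 0) in the 12 libraries, with the mean and SD of 3 mice per genotype. The levels overlap between most genotypes, while the ratio is 2.77 to 3.49 without and 4.11 to 4.70 with the transgene.

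Markers of other cell types were measured in the same libraries. The 10 motoneuron markers were lower in Plekhg5+/+ SOD1-G93A than in Plekhg5+/+ mice in 10 of 10 cases, with a median log2 fold change of -0.34, although 0 of 10 passed the test (6 had an unadjusted p under 0.05). Chat, the enzyme of acetylcholine synthesis, was at 29.5, 32.6 and 30.8 CPM in Plekhg5+/+ and 19.6, 26.9 and 24.0 CPM in Plekhg5+/+ SOD1-G93A mice. Without Plekhg5 the median of these markers upon the transgene was -0.07. The 8 pan-neuronal markers were likewise lower with Plekhg5 in 8 of 8 cases (median -0.13). Of these, 3 had an unadjusted p under 0.05 and 0 were called, and their median without Plekhg5 was -0.0049. The 15 markers listed for dorsal horn interneurons had a median of 0.06 with Plekhg5 and 0.03 without it, and 0 of 15 were called in either comparison. An unadjusted p under 0.05 was found for 2 of 15 with Plekhg5 and 0 without it. This list includes Gad1, Gad2, Slc32a1, Slc6a5 and Slc17a6, which are not particular to the dorsal horn. Of 8 microglia markers 7 rose with Plekhg5 (median log2 fold change 1.09) and 0 without it (median 0.20). Of 8 astrocyte markers 1 rose with Plekhg5, Gfap, by 1.23 on the log2 scale (adjusted p = 0.0198), and 0 without it. Without Plekhg5+/+ library 1 or 2, and with only the 2 genotypes compared, 0 of these microglia markers and not Gfap passed the test, with the fold changes still positive. The part of these shifts in the values of Calca and Calcb was not tested.

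The wider peptide system gave a similar picture. Of 27 receptors and receptor subunits of these peptides 24 were tested, of 45 other peptide precursors 24, of 17 genes for peptide processing and granules 17, and of 10 peptide-degrading enzymes 10. In each of these lists, 0 genes were called in any of the 7 comparisons. Upon the transgene with Plekhg5 the medians of the log2 fold changes were -0.04 for the receptors, 0.12 for the other precursors, -0.04 for processing and granules and -0.06 for the degrading enzymes, against -0.00099 over all genes tested. The following genes were named after their values had been seen, for their low p. Pcsk1, the convertase that cuts many precursors, was at 70.0, 58.8 and 60.7 CPM in Plekhg5+/+ and at 50.4, 46.8 and 53.4 CPM in Plekhg5+/+ SOD1-G93A mice, without overlap. Pcsk1 was also below all Plekhg5+/+ libraries in Plekhg5-/- mice without the transgene (49.3, 54.9 and 54.6 CPM) and in Plekhg5-/- SOD1-G93A mice (58.2, 50.9 and 56.9 CPM). Its log2 fold change upon the transgene with Plekhg5, -0.33 ± 0.08 (SE), missed the threshold (adjusted p = 0.0553, edgeR). Chga, a granule protein, had -0.24 (adjusted p = 0.0723) and Scg3, which sorts granule proteins, 0.31 (adjusted p = 0.102). Chga was also lower in Plekhg5-/- mice (324.3, 335.1 and 325.0 CPM) than in Plekhg5+/+ mice (373.6, 347.0 and 356.4 CPM), without overlap. Groups did not overlap for 8.71% of all genes tested upon Plekhg5 loss without the transgene, and for 20.6% upon the transgene with Plekhg5. The lowest adjusted p of the 17 processing and granule genes upon Plekhg5 loss without the transgene was 0.787 (edgeR). For Pcsk1 and Chga, both comparisons share the Plekhg5+/+ libraries. Among the receptors, the lowest p was that of Vipr2, a receptor of VIP, with -0.48 (adjusted p = 0.128), and Tacr1, the receptor of substance P, had -0.36 (adjusted p = 0.206). In Plekhg5-/- SOD1-G93A mice relative to Plekhg5+/+ SOD1-G93A mice Vipr2 had 0.40 and Tacr1 0.36 (adjusted p = 0.529 and 0.527). Both comparisons share the Plekhg5+/+ SOD1-G93A libraries.

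**Figure D4:**
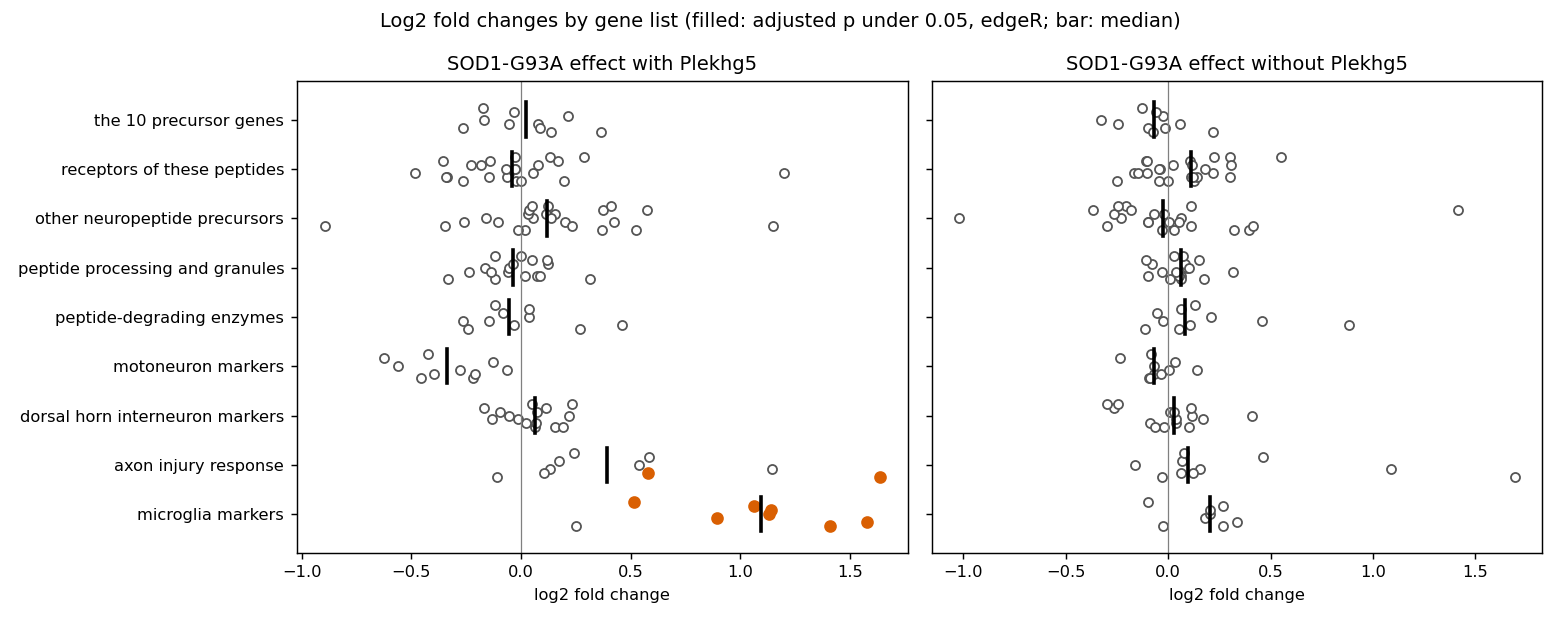
Log2 fold changes upon SOD1-G93A with Plekhg5 (left) and without it (right) for the genes tested of 9 lists, with open points for genes that did not pass and filled points for those with an adjusted p under 0.05 (edgeR); vertical bars are medians. Among the 9 lists drawn, filled points are found in the axon injury (2 of 10) and microglia genes (7 of 8) on the left, and the 10 peptide genes centre on 0.

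Within genotypes, the peptide genes varied together between mice. For each gene, the deviation of each library from the mean of its genotype was taken on the log2 scale. Of the 45 pairs of the 10 genes, 44 had deviations with a positive Pearson r over the 12 libraries, with a median of 0.681. Over all pairs of 16609 genes with at least 1 CPM the median was 0.003, with 50.2% of the pairs positive and 7.62% at 0.681 or above. The highest values were those of Penk with Grp (0.954), Calca with Calcb (0.949), Tac1 with Sst (0.933) and Npy with Tac1 (0.930). Vip stood aside, with r between -0.159 (with Gal) and 0.515 (with Pdyn). In library 1 of the Plekhg5-/- mice, library 3 of the Plekhg5+/+ SOD1-G93A mice and library 1 of the Plekhg5-/- SOD1-G93A mice, 10 of 10 genes were above the mean of their genotype, and in library 1 of the Plekhg5+/+ mice 9 of 10 were. Conversely, 0 of 10 were above it in library 1 of the Plekhg5+/+ SOD1-G93A mice, and 1 of 10 in library 2 of the Plekhg5+/+ mice, of the Plekhg5+/+ SOD1-G93A mice and of the Plekhg5-/- SOD1-G93A mice.

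A property of the libraries moved with these deviations. The median deviation of 1636 genes with under 1500 bases of exon minus that of 3517 genes with over 6000 bases, each at 5 CPM or more, ranged from -0.21 to 0.31 between libraries. The median deviation of the 10 peptide genes, of which 5 are under 1500 bases in length and 0 are over 6000 bases, had a Pearson r of 0.789 and a Spearman rho of 0.748 with this index over the 12 libraries. Without the 2 libraries farthest from its median, both numbered 1 (Plekhg5+/+ and Plekhg5-/-), r was 0.708 and rho 0.636. Among the single genes r was highest for Sst (0.944), Tac1 (0.836) and Npy (0.802), and low for Calca (0.421) and Vip (-0.05). It was over 0.5 for 8 of the 10 genes and for 25.2% of all genes tested. In library 1 of the Plekhg5-/- SOD1-G93A mice the 10 genes were high (median deviation 0.21) while the index was at -0.01. The values are descriptive, since the libraries of a genotype share its mean. With the index as a term in the edgeR fit 0 of the 10 genes were called, and 17 of the 70 log2 fold changes, none of them called before or after, changed their sign.

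**Figure D5:**
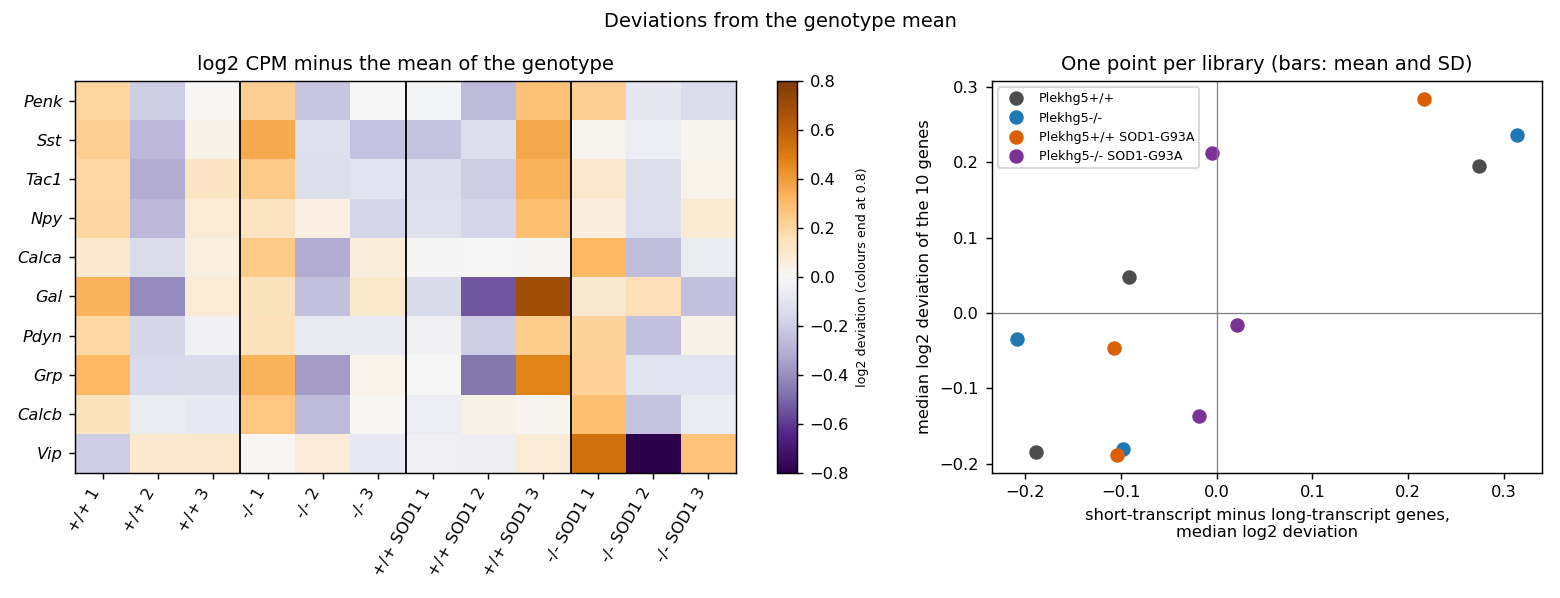
Left, deviation of each gene (rows) in each library (columns) from the mean of its genotype, in log2 units, with colours limited to 0.8 in either direction (Vip in Plekhg5-/- SOD1-G93A library 2 is below that). Right, the median deviation of the 10 genes against the index of short minus long genes, with 1 point per library (r = 0.789); most columns on the left are of 1 colour, and 3 of the 4 libraries in which the genes are high are also high in the index.

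The genes with the most similar pattern to each peptide gene were looked up by Pearson r of log2 CPM over the 12 libraries, 3 for each gene and without a test. Penk was most like Cartpt (0.951), another peptide precursor, Grp (0.922) and Nup85 (0.896). Grp was likewise most like Cartpt (0.927), with Gemin7 (0.926) and Penk next. Cartpt was at 12.4, 8.34 and 10.1 CPM in Plekhg5+/+, 10.7, 7.80 and 10.3 CPM in Plekhg5-/-, 8.11, 7.26 and 12.2 CPM in Plekhg5+/+ SOD1-G93A and 9.90, 7.16 and 7.54 CPM in Plekhg5-/- SOD1-G93A mice, with the high and low libraries of Penk. Npy was most like Ebf2 (0.938), Tubg2 (0.936) and Tac1 (0.900), and Tac1 like Washc3 (0.958), Shf (0.931) and Tubg2 (0.924). Sst was most like Rtraf-ps, Phpt1 and Adprh (0.953 to 0.961). The exon lengths of Rtraf-ps (967 bases) and Phpt1 (970 bases) are close to the 968 bases of Sst, and that of Adprh is 1583 bases. Such closeness was not general. Tac1 has 1326 bases, against 12576 for Washc3, 8528 for Shf and 1787 for Tubg2. Gal has 788 bases, and the 3 genes most like it have 4483 (Cacnb3), 1078 (Stk19) and 8370 bases (LOC115488333). The part of exon length in these likenesses was not tested. Calcb was most like Mnx1 (0.896), a transcription factor of motoneurons, Pcmt1 (0.888) and Arhgap36 (0.885). Calca was most like Sp2 (0.881), Gm16391 (0.878) and Rpph1 (0.874), of which the latter 2 were at 0.308 and 0.329 CPM. Gal was most like Cacnb3 (0.914), Stk19 (0.905) and LOC115488333 (0.887), Vip like Pkd1l2 (0.910), Gm33310 (0.862) and Top1mt (0.830), and Pdyn like Gm18284 (0.927), BB218582 (0.885) and Tmem114 (0.879). Depth, the length index and the choice of the highest among 20155 genes are shared by all these values.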

How the data were processed

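According to the methods of the study, the authors trimmed the reads (single-end, stranded TruSeq libraries) with Cutadapt 2.4, mapped them with STAR 2.7.2b to GRCm38.p6 with the human SOD1 cDNA added, and counted them by strand with featureCounts 1.6.4 on RefSeq genes, as fractions for reads with several matches. The deposited values are therefore estimated counts (expected counts) per gene, not normalized. Here they were rounded to whole numbers and tested with edgeR 4.0.16 (R 4.3.3): filterByExpr (20155 of 45906 genes kept), TMM, robust quasi-likelihood fit of 12 libraries in 4 genotypes, contrasts of genotype means, and Benjamini-Hochberg adjustment over all genes tested with a threshold of 0.05. CPM of the 10 genes were computed from the rounded counts with TMM factors. Those of the wider lists, of Plekhg5 and of human SOD1 were computed from the unrounded counts with the same factors. Deviations were taken of log2(CPM + 0.01). Both edgeR and DESeq2 were tested on simulated data. The genes and lists were chosen with earlier results of these data known. By rule, the text names the 10 genes, called genes of the peptide lists (which were 0) and the 3 genes most like each member; other genes were named with their values known. The alternatives were DESeq2 1.42.0 with and without its prior, its size factors, other filters, only the genotypes compared, a replicate block, a term for Y-linked transcripts (over 1000 counts), limma 3.58.1 voom with quality weights, each library left out, and, added after the data were seen, the exon length index as a covariate. Libraries of a genotype differed by more than counting noise (chi-square per degree of freedom 5.42 to 25.9). Separate mice are given as the replicates. Promoter windows and positions are from RefSeq on GRCm38.p6; plots were made with Python 3.11.15 and matplotlib 3.10.9. A further marker of Schwann cells is not reported here.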

Additional observations from a re-analysis of the deposited data

How the results depend on the processing

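Of 1510 log2 fold changes of the 10 genes under 22 alternatives, 1383 kept their direction and their side of the threshold, 126 changed sign without passing it in either fit, 1 came to pass it and 0 were reversed as calls. With the indicator of Y-linked transcripts the count of called genes was 1, for the transgene effect averaged over both Plekhg5 backgrounds (Calca, log2 fold change 0.40, adjusted p = 0.0363), and the cause was not tested. With each library left out in turn the number of called genes stayed at 0 in all 7 comparisons.

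With the replicate number as a block 0 of the 10 genes were called, and 1 of 70 values changed sign. Whether the numbers pair the mice is not given in the labels. Of 18 pairs of libraries with the same number, 10 had a correlation of their deviations over 0.1 (range -0.365 to 0.542). The median of these 18 was 0.129, against -0.140 for pairs with different numbers, and 4 of 12 libraries correlated best with one of their own number. With the block, edgeR called 631 genes for the transgene effect with Plekhg5 and 417 for its average, against 498 and 245 without the block. DESeq2 without the prior called 1172 genes for the transgene effect with Plekhg5 where edgeR called 498, with 0 peptide genes in either. That count was 2 to 771 with single libraries left out, 3 with only the 2 genotypes compared, 282 with voom and 1060 with the exon length index as a covariate. For the interaction DESeq2 called 102 genes where edgeR called 0 (114 with the prior; up to 40 with a library left out), for the transgene effect without Plekhg5 44 where edgeR called 1, and on average 826 where edgeR called 245. For the loss of Plekhg5 DESeq2 called 71 with the transgene, 36 without it and 18 on average, where edgeR called 7, 6 and 11. Again 0 peptide genes were among them. With 3 mice per genotype the interval of the transgene effect with Plekhg5 spans 0.700- to 1.59-fold for Gal and 0.662- to 1.40-fold for Vip, so changes within these bounds are undecided.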
